A study of Mus musculus with 36 samples.

Results

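Chemokines and their receptors were followed in plasma cells sorted from mouse bone marrow. Members were taken by symbol, as protein-coding genes whose GRCm38 name is Ccl, Cxcl, Ccr or Cxcr followed by a digit, together with Xcr1, Cx3cr1 and Ackr3. Covered here are 60 such gene records of the annotation under 55 symbols, 7 of them on unplaced scaffolds, and 58 of the 60 were in the quantified transcriptome, among 54203 genes in all. Of these 58, 26 passed the low-count filter of at least 1 cohort and are called measured: 21 in cohort D, 24 in cohort M and 19 in both.

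The 36 libraries, each made from 2000 sorted cells of C57/BL6 mice, form 2 cohorts of 18, one for each of 2 mouse models of the plasma cell cancer multiple myeloma. Cohort D holds Ccnd1-Ikk2ca (n = 6), Ikk2ca(D) (n = 4), Ccnd1 (n = 4) and Control(D) (n = 4), and cohort M holds MMSET-Ikk2ca (n = 6), Ikk2ca(M) (n = 4), MMSET (n = 4) and Control(M) (n = 4). Ccnd1 encodes cyclin D1, MMSET is the histone methyltransferase encoded by Nsd2, and Ikk2ca is a constitutively active form of IKK2, the kinase that switches on NF-kB. All groups were gated on the surface proteins CD138 and TACI, with a reporter signal named for part of the sort. The labels give neither the promoter or Cre that drives each transgene, nor the alleles that controls carry, nor the age or sex of the mice. They also do not say whether each library is its own mouse, so a p-value here reflects only library-to-library spread, which may be technical. Xist was above 10 CPM in 3 of 6 Ccnd1-Ikk2ca, 4 of 4 Ikk2ca(D), 2 of 4 Ccnd1 and 1 of 4 Control(D) libraries. In cohort M it was in 3 of 6 MMSET-Ikk2ca, 4 of 4 Ikk2ca(M), 3 of 4 MMSET and 2 of 4 Control(M) libraries.

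Libraries held 54 M to 97.5 M gene reads (M, 1e6 reads), 43.9 to 73% of them from immunoglobulin genes, which left 16.2 M to 34.9 M for all other genes. Ccnd1 ran at 257.8 to 982.7 CPM (read counts per 1e6 reads, scaled with TMM over all 36 libraries) in the 10 libraries labelled with it and at 0 to 3.551 in the other 26, and Nsd2 at 174.3 to 823.8 CPM in the 10 MMSET libraries against 0.5337 to 9.956 in the rest. Ikbkb, which encodes IKK2, stood at 42.14 to 83.37 CPM in the 20 libraries labelled Ikk2ca and at 10.65 to 39.04 in the other 16. All 8 plasma cell markers (among them Sdc1, Prdm1, Irf4 and Xbp1) had reads in every group. Of the 8, 4 were called lower (edgeR, adjusted p under 0.05) in each double transgenic group against its control, Jchain, Mzb1 and Tnfrsf17 in both. Of all genes, 5.32% were called lower in Ccnd1-Ikk2ca and 3.41% in MMSET-Ikk2ca. Their summed level was 7523 to 19490 CPM in Ccnd1-Ikk2ca and 54150 to 99910 CPM in Control(D). In cohort M this marker sum was 4431 to 6388 CPM in MMSET-Ikk2ca and 31070 to 41710 CPM in Control(M). No molecular identifiers are described for these amplified libraries, so intervals and floors given for read counts cover counting error only.

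Chemokines are small secreted proteins that guide cells along concentration gradients, and their receptors are G protein-coupled receptors on the surface of the responding cell. Plasma cells use them to reach and stay in particular tissues: Cxcr4 binds Cxcl12 made by bone marrow stroma, Ccr9 binds Ccl25 of the small intestine, Ccr10 binds Ccl27 and Ccl28 of skin and mucosa, and Cxcr3 binds interferon-induced CXC ligands such as Cxcl9. Many chemokine ligand genes are also textbook NF-kB targets.

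In both cohorts the double transgenic cells had less of the homing receptors Ccr10 and Cxcr3 than controls. The test was edgeR's quasi-likelihood test with Benjamini-Hochberg adjustment over all genes, and a gene is called at an adjusted p under 0.05. Against Control(D), Ccnd1-Ikk2ca cells had 3 of 21 measured members called, all lower (Ccl9, Ccr10 and Cxcr3), where 11.1% of all 15323 genes were called, 5.83% higher and 5.32% lower. Against Control(M), MMSET-Ikk2ca cells had 6 of 24 called, all lower (Ccr1, Ccr10, Ccr2, Ccr9, Cxcr3 and Cxcr6), where 6.91% of all 15416 genes were called, 3.5% higher and 3.41% lower. The median fitted log2 fold change of the measured members was -2.27 in the first comparison and -1.93 in the second, beside 0.02 and 0.01 over all genes tested. No measured member was called higher in these comparisons by edgeR, and none by DESeq2 either. At unadjusted p under 0.05 stood 10 of the 21 and 11 of the 24 members, beside 3862 of 15323 and 3365 of 15416 genes.

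**Figure D1:**
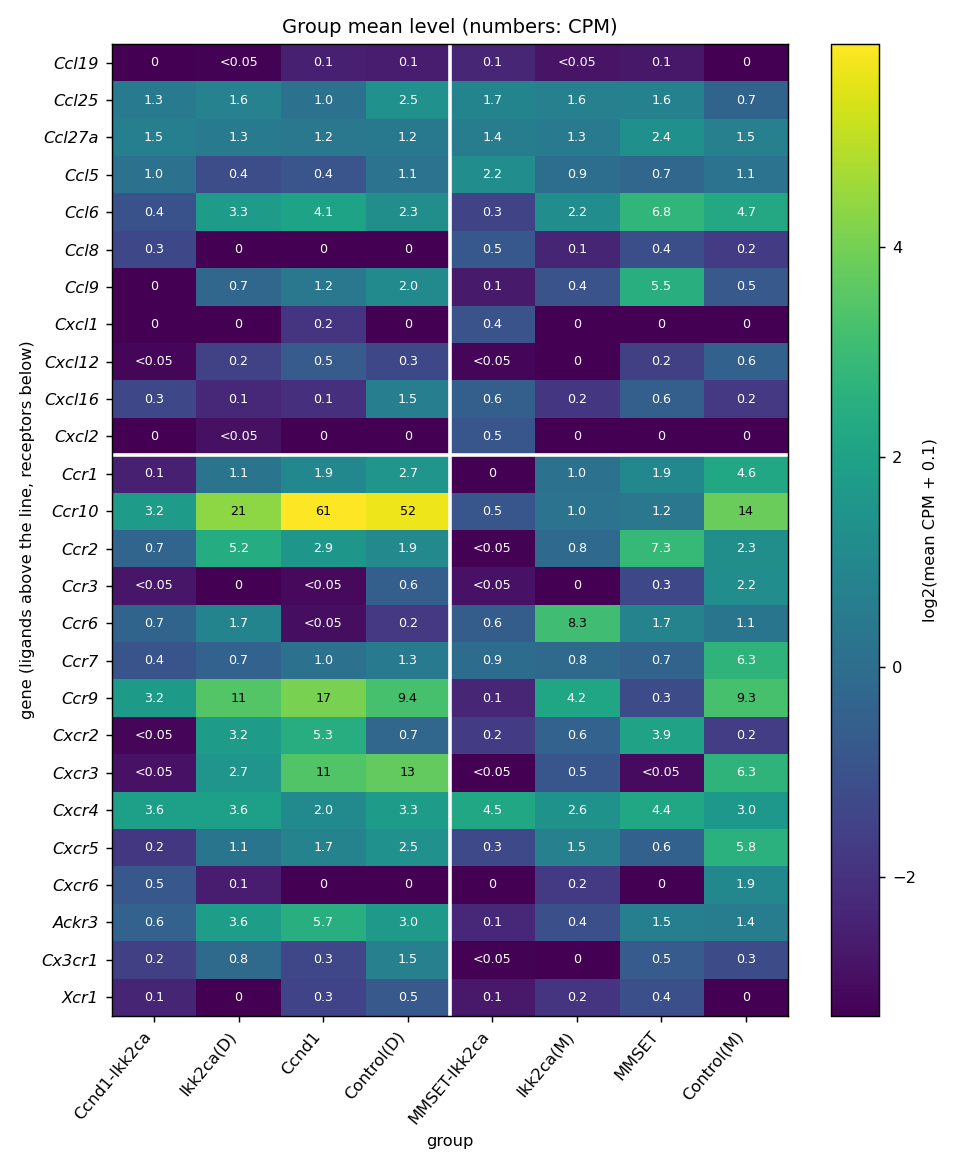
Mean CPM of the 26 measured members (rows, ligands above the white line and receptors below) in the 8 groups (columns, cohort D left and cohort M right). Colour is log2(mean CPM + 0.1) and the printed numbers are CPM. Ccr10, Ccr9 and Cxcr3 are among the brightest rows, with Ccr10 at 61 CPM in Ccnd1 cells and 52 in Control(D), and they darken in the double transgenic columns, while Cxcr4 stays between 2.0 and 4.5 CPM in all 8 groups.

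With 1 transgene, few or no members passed the test. Ccnd1 cells against Control(D) gave 0 of 21 (0 at unadjusted p under 0.05 and 0 by DESeq2), where 0.00653% of all genes were called, and Ikk2ca(D) cells gave 0 of 21 (2 unadjusted and 0 by DESeq2), where 0.437% were called. Ikk2ca(M) cells against Control(M) gave 0 of 24 (3 unadjusted and 2 by DESeq2), with 0.649% of all genes called, and MMSET cells gave 1 of 24, Cxcr3, which was lower, also with 0.649% of genes called and 0.175% called lower. Unadjusted p under 0.05 was held by 964 and 2045 of 15323 genes for Ccnd1 and Ikk2ca(D), and by 1912 of 15416 for Ikk2ca(M). The shares of all genes called are from edgeR, and those of DESeq2 are not given. Set against each single transgenic group, the double transgenic cells again had members called only lower. Ccnd1-Ikk2ca cells had 6 of 21 lower than Ccnd1 cells (Ccl6, Ccl9, Ccr10, Ccr9, Cxcr2 and Cxcr3), where 6.2% of all genes were called and 3.39% called lower, and they had 1 of 21 lower than Ikk2ca(D) cells (Ccl9), where these shares were 0.424% and 0.372%. MMSET-Ikk2ca cells had 2 of 24 lower than MMSET cells (Ccr1 and Ccr2), with 1.58% of all genes called and 0.941% called lower, and they had 1 of 24 lower than Ikk2ca(M) cells (Cxcr3), with 0.96% called and 0.532% called lower. The comparisons of 1 cohort share libraries, so these counts are not independent of each other.

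Most ligand genes had few or no reads. Of 39 ligand records in the files, 11 were measured (Ccl19, Ccl25, Ccl27a, Ccl5, Ccl6, Ccl8, Ccl9, Cxcl1, Cxcl12, Cxcl16 and Cxcl2) and 13 had no read in any library, among them Ccl1, Ccl17, Ccl2, Ccl20, Ccl26, Cxcl15, Cxcl3 and Cxcl5. The ligands that passed neither filter held at most 119 reads summed over the 36 libraries (Ccl4) and at most 1.284 CPM in any library (Ccl22), and include Ccl3, Ccl7, Ccl12, Ccl24, Cxcl9, Cxcl13 and Cxcl14. Ccl28, a ligand of Ccr10, had 6 reads in 1 library, and Ccl2, the ligand of Ccr2, had none, so neither was measured. The near-identical copies Ccl21a, Ccl21b and Ccl21c, and the Ccl19 and Ccl27 copies on scaffolds, can share reads, and their values are uncertain.

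Ccl6 and Ccl9 are neighbours on chromosome 11 and attract myeloid cells through Ccr1. They were the only ligands called lower by edgeR, in cohort D alone, and Ccl6 only against Ccnd1. Ccl9 had 0 reads in all 6 Ccnd1-Ikk2ca libraries, 0, 1.52, 1.21 and 0.227 CPM in Ikk2ca(D), 1.63, 0.98, 0.544 and 1.72 CPM in Ccnd1, and 0.927, 3.17, 2.99 and 1.05 CPM in Control(D). A floor of 3 reads over the 6 libraries was used, which covers counting error only and does not bound the true fold. At this floor Ccl9 was 303.5-fold lower in Ccnd1-Ikk2ca than in Control(D) (edgeR adjusted p 0.00137). It was 182.6-fold lower than in Ccnd1 (0.00279) and 111.6-fold lower than in Ikk2ca(D) (0.0315). The last of these calls held in 9 of the 18 fits that each left out 1 library, with adjusted p between 0.00691 and 0.0875. It was lost without Control(D) 2 or 3, Ccnd1 2 or 3, Ikk2ca(D) 3, or Ccnd1-Ikk2ca 3, 4, 5 or 6, and also with libraries 1 to 4 of each group (0.111) or all 36 libraries (0.134) in the fit. With Ccnd1-Ikk2ca and Ikk2ca(D) alone in the fit, Ccl9 did not pass the low-count filter and was not tested. In cohort M, Ccl9 had reads in 1 of 6 MMSET-Ikk2ca libraries (0.354 CPM), and stood at 0.528, 0, 0.0157 and 1.10 CPM in Ikk2ca(M), at 17.4, 1.33, 3.33 and 0 CPM in MMSET, and at 0.0931, 0, 1.69 and 0.206 CPM in Control(M). These groups overlap, and the difference of MMSET-Ikk2ca from Control(M) was -3.06 (SE 1.88, adjusted p 0.385).

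Ccl6 was at 0 to 0.821 CPM in Ccnd1-Ikk2ca (median 0.371), at 1.37, 0.697, 10.7 and 0.53 CPM in Ikk2ca(D), at 3.69, 4.94, 4.46 and 3.24 CPM in Ccnd1, and at 1.47, 2.69, 2.42 and 2.58 CPM in Control(D). The Ccnd1-Ikk2ca libraries lay below every Ccnd1 and every Control(D) library. Ccl6 fell by 3.33 on the log2 scale against Ccnd1 (SE 0.94, edgeR adjusted p 0.0411), a call that held in 10 of 18 fits with 1 library left out (adjusted p 0.0265 to 0.0870; lost without Control(D) 2, Ccnd1 1, 2 or 3, or Ccnd1-Ikk2ca 2, 4, 5 or 6) and was also lost with libraries 1 to 4 of each group (0.0780), all 36 libraries (0.0786) or the compared groups alone (0.0571) in the fit, while against Control(D) the difference was -2.49 (SE 0.92, adjusted p 0.0886). In cohort M, Ccl6 was at 0 to 0.765 CPM in MMSET-Ikk2ca (median 0.0834), at 1.49, 1.78, 0.597 and 5.12 CPM in Ikk2ca(M), at 19.7, 1.04, 5.46 and 1.03 CPM in MMSET, and at 3.99, 6.15, 7.12 and 1.38 CPM in Control(M). Its difference from Control(M) was -4.06 (SE 1.25, adjusted p 0.0577), which did not pass, although the groups did not overlap.

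Both genes are known from myeloid cells, and the level of neutrophil transcripts also varied between libraries and groups. The summed level of 10 neutrophil markers, all 10 with reads in every group, ran from 1.275 to 222 CPM in Ccnd1-Ikk2ca, 51.78 to 517.3 in Ikk2ca(D), 405 to 1605 in Ccnd1 and 48.45 to 549.2 in Control(D). In cohort M it ran from 0.7736 to 14.83 CPM in MMSET-Ikk2ca, 5.865 to 462.9 in Ikk2ca(M), 46.41 to 2775 in MMSET and 40.89 to 206.6 in Control(M). The sums of Ccnd1-Ikk2ca overlapped those of Control(D), and the sums of MMSET-Ikk2ca lay below those of Control(M). Of the 10 markers, 1 was called lower in Ccnd1-Ikk2ca and 2 in MMSET-Ikk2ca against their controls, and none higher. Of all genes, 5.32% and 3.41% were called lower there. Against Ccnd1 and MMSET the marker counts were 2 and 4, where 3.39% and 0.941% of all genes were called lower. The part of neutrophil RNA in the levels of Ccl6 and Ccl9, and of Ccr1, Ccr2 and Cxcr2 below, was not tested, and in sorted bulk samples fewer cells of a type cannot be told apart from less RNA per cell.

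**Figure D2:**
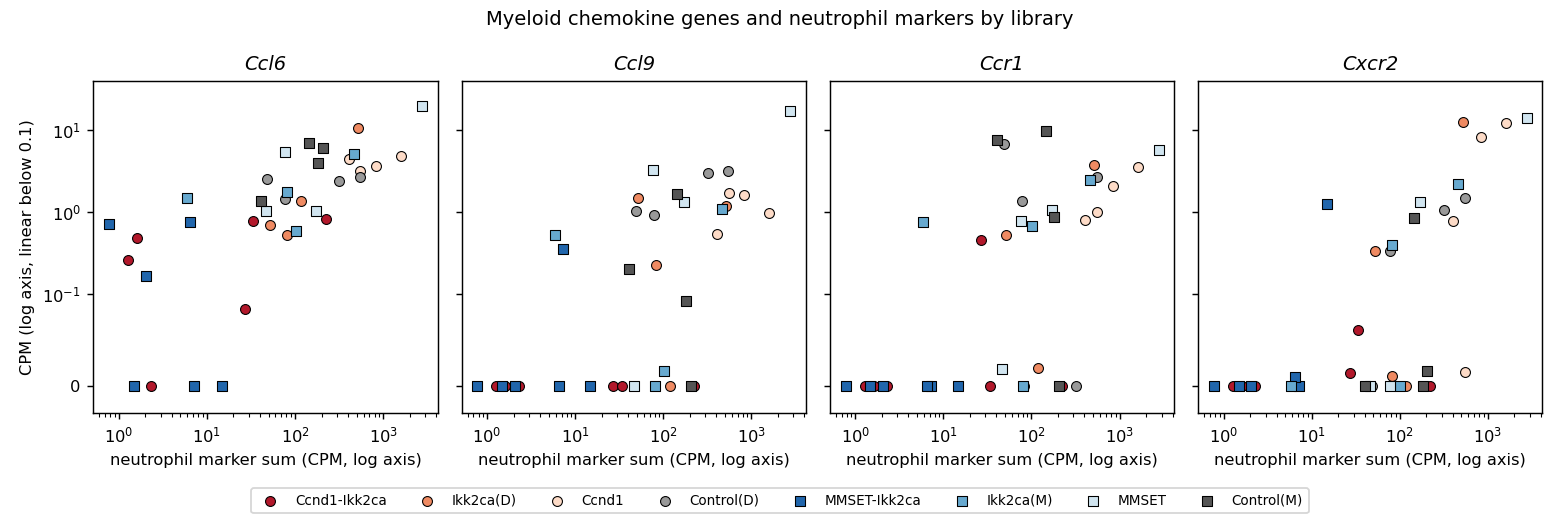
Each point is 1 library: the summed CPM of 10 neutrophil markers (horizontal, log axis) against the CPM of Ccl6, Ccl9, Ccr1 or Cxcr2 (vertical, log axis, linear below 0.1). Most double transgenic libraries sit at the left, with neutrophil sums from 0.7736 to 222 CPM, and MMSET library 1, at 2775 CPM, has the highest Ccl6 (19.7), Ccl9 (17.4) and Cxcr2 (14.3). Ccr1 is highest in Control(M) library 3 (9.71), at a neutrophil sum of 144.5 CPM, and stands at 5.79 in MMSET library 1.

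Ccl5, which attracts T cells and is a known NF-kB target, had 2602 reads over 32 of 36 libraries, and Cxcl1 and Cxcl2, neutrophil attractants and NF-kB targets as well, were near the limit of detection. Ccl5 averaged 2.23 ± 1.09 CPM in MMSET-Ikk2ca (SD, n = 6) and 1.06 ± 0.857 CPM in Control(M) (SD, n = 4), a log2 difference of 1.06 (SE 1.26, edgeR adjusted p 0.728). It averaged 1.008 ± 0.571 CPM in Ccnd1-Ikk2ca, against 1.06 ± 0.763 CPM in Control(D), a difference of -0.07 (SE 1.21, edgeR adjusted p 0.985). Cxcl1 had reads in 4 of 6 MMSET-Ikk2ca libraries (up to 1.087 CPM, 174 reads in all) and none in Ikk2ca(M), MMSET or Control(M). Cxcl2 had reads in 5 of 6 MMSET-Ikk2ca libraries (up to 1.51 CPM, 239 reads) and likewise none in those 3 groups, and their adjusted p against Control(M) were 0.111 and 0.0954. In cohort D, Cxcl1 had 45 reads, all in 1 Ccnd1 library, and Cxcl2 had 11, all in 1 Ikk2ca(D) library. Ccl25 and Ccl27a, present in all 36 libraries at up to 4.48 and 2.917 CPM, overlap Elavl1 and Il11ra1 on the opposite strand, and without strand information reads of such partners cannot be told apart.

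The promoter windows of Cxcl1, Cxcl2 and Ccl9 and of the receptors Cxcr3 and Ccr9, which fell, are shown because the transgene shared by both double models encodes a kinase of the NF-kB pathway. Windows of 300 bases, 250 before to 50 after the annotated start, are from RefSeq on GRCm38.p6 and are printed 5′ to 3′ on the strand of the gene. Capitals mark the NF-kB letters, GGG, then any 3 bases, then TTCC, searched on both strands, so that neighbouring matches can overlap. These letters are held by 5.555% of all 32851 mouse windows. Of 39 member symbols with a window 8 hold them: Ccl1, Ccl20, Ccl9, Ccr3, Ccr6, Cxcl1, Cxcl2 and Cxcl3. Cxcl1 (chr5:90890995-90891294, plus strand) and Cxcl2 (chr5:90903649-90903948, plus strand) hold 3 matches each and Ccl9 (chr11:83578587-83578886, minus strand) holds 1. The windows of Cxcr3 (chrX:101734098-101734397, minus strand) and Ccr9 (chr9:123766961-123767260, plus strand) hold none, nor do those of Ccl6, Ccr1, Ccr2, Cxcr2 and Cxcr6, which are not printed. Ccr10 has no window in the table. A match is a description of the letters and not a shown binding site.
Cxcl1: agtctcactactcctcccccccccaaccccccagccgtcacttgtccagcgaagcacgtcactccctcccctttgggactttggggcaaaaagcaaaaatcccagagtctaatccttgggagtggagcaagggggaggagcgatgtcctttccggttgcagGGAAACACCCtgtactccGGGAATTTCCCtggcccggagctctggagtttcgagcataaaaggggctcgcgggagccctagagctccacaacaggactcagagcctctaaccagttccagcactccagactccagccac
Cxcl2: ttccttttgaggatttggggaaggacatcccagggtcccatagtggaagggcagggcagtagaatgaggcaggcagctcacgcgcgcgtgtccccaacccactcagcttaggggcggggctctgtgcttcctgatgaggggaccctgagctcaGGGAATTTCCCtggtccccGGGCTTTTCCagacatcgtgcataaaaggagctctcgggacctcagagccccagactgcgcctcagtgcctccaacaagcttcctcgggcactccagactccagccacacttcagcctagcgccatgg
Ccl9: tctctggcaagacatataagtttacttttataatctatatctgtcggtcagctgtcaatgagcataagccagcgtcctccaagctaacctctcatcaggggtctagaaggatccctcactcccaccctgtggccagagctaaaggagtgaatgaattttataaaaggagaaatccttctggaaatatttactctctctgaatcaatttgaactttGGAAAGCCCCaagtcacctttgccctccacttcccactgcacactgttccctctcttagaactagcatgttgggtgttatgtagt
Cxcr3: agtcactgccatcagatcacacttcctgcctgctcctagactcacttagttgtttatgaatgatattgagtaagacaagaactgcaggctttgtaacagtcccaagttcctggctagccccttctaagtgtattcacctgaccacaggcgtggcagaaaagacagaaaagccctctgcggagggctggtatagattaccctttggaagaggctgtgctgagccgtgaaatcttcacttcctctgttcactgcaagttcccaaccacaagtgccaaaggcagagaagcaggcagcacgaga
Ccr9: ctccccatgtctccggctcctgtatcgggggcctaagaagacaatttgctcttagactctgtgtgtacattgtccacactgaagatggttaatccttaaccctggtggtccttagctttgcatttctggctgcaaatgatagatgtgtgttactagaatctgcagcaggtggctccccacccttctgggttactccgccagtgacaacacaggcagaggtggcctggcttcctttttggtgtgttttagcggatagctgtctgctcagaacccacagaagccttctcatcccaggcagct

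Of 19 receptor records in the files 15 were measured: Ccr1, Ccr2, Ccr3, Ccr6, Ccr7, Ccr9, Ccr10, Cxcr2, Cxcr3, Cxcr4, Cxcr5, Cxcr6, Ackr3, Cx3cr1 and Xcr1. Ccr4 and Ccr1l1 had no reads, Ccr8 had 1 and Cxcr1 had 86. On the length-scaled TPM scale, which allows levels of different genes to be compared, Ccr10 had rank 1 of the members in Ikk2ca(D) (4.15 TPM), Ccnd1 (12.02), Control(D) (11.98) and Control(M) (3.151). It had rank 4 in Ccnd1-Ikk2ca (0.8634 TPM) and ranked below the first 8 members in MMSET-Ikk2ca (0.1199 TPM), Ikk2ca(M) (0.2454) and MMSET (0.2155). Ligands had ranks 1 and 2 in both double transgenic groups, Ccl27a (2.227 TPM) and Ccl5 (1.428) in Ccnd1-Ikk2ca and Ccl5 (3.116) and Ccl27a (2.325) in MMSET-Ikk2ca, and also in MMSET, with Ccl6 (2.136) and Ccl27a (1.873).

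Ccr10 (chr11:101172997-101175443, minus strand), the receptor for Ccl27 and Ccl28 that is known from IgA-secreting plasma cells, fell in both double models. It stood at 1.60 to 5.60 CPM in Ccnd1-Ikk2ca (median 3.21), at 20.9, 4.71, 31.3 and 25.3 CPM in Ikk2ca(D), at 109.6, 49.8, 72.3 and 12.1 CPM in Ccnd1, and at 67.5, 45.0, 72.6 and 23.8 CPM in Control(D). Every Ccnd1-Ikk2ca library lay below every Ccnd1 and Control(D) library, and the Ikk2ca(D) libraries reached into both. On the log2 scale Ccr10 fell by 4.01 against Control(D) (SE 0.59, edgeR adjusted p 0.000706) and fell by 4.24 against Ccnd1 (SE 0.59, adjusted p 0.000764), while against Ikk2ca(D) the difference was -2.67 (SE 0.57, adjusted p 0.0554). The last passes without Ccnd1 4 (adjusted p 0.0285), without Ikk2ca(D) 2 (0.0215), with immunoglobulin genes left out (0.0372) or by DESeq2 (2.54e-05). Ikk2ca(D) against Control(D) gave -1.34 (SE 0.62, adjusted p 0.365).

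In cohort M, Ccr10 was at 0 to 0.989 CPM in MMSET-Ikk2ca (median 0.457), at 0.739, 1.20, 0.958 and 1.27 CPM in Ikk2ca(M), at 1.34, 0.0676, 1.97 and 1.302 CPM in MMSET, and at 21.1, 16.5, 9.29 and 8.56 CPM in Control(M). All 14 transgenic libraries lay below all 4 controls. The drop against Control(M) was called for MMSET-Ikk2ca, at -4.93 (SE 1.03, adjusted p 0.00646), and not for Ikk2ca(M), at -3.74 (SE 1.15, adjusted p 0.179), or MMSET, at -3.56 (SE 1.14, adjusted p 0.180). DESeq2 called both of these, with adjusted p 0.00907 for Ikk2ca(M) and 0.0152 for MMSET, and edgeR called Ikk2ca(M) when fitted to all 36 libraries (0.0448) or to the compared groups alone (0.00358). The calls of Ccr10 in the comparisons of both double groups with their controls held in every fit with 1 library left out.

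IgA transcripts differed between the same groups, and their part in the Ccr10 level was not tested. The share of Igha among heavy chain constant reads ran from 3.45 to 58.59% in Ccnd1-Ikk2ca (median 19.49), from 3.923 to 48.56% in Ikk2ca(D), from 15.14 to 86.12% in Ccnd1 and from 28.97 to 74.29% in Control(D). In cohort M it ran from 1.274 to 14.36% in MMSET-Ikk2ca, 0.1815 to 13.8% in Ikk2ca(M), 0.1564 to 9.88% in MMSET and 5.202 to 23.98% in Control(M). Of the Ccnd1-Ikk2ca libraries, 1 and 2 had a share above the lowest Control(D) share of 28.97% (32.45% with 1.796 CPM of Ccr10, and 58.59% with 2.707 CPM), while libraries 3 to 6 had shares of 5.744, 12.36, 3.45 and 26.63%, below every Control(D) library. Ikk2ca(D) library 1, at 3.923%, had 20.94 CPM. In cohort M, MMSET-Ikk2ca libraries 1, 3 and 5, at 1.274, 3.873 and 1.309%, were below the lowest Control(M) share of 5.202%, and libraries 2, 4 and 6, at 5.496, 13.26 and 14.36%, were above it and had 0.5557, 0 and 0.3575 CPM. Ikk2ca(M) library 3, at 13.8%, had 0.9578 CPM. Ccr10 lies opposite Cntnap1 on the other strand.

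**Figure D3:**
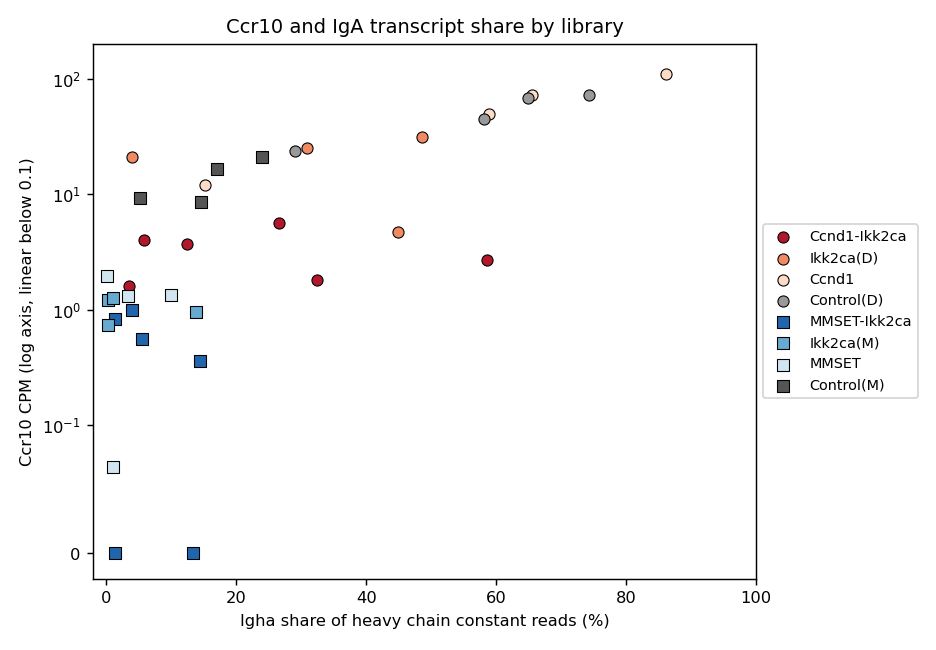
Each point is 1 library: the share of Igha among heavy chain constant reads (horizontal, %) against Ccr10 CPM (vertical, log axis, linear below 0.1), with cohort D as circles and cohort M as squares. The Ccnd1-Ikk2ca libraries lie between 1.60 and 5.60 CPM over Igha shares from 3.45 to 58.59%, and the Control(D) libraries between 23.8 and 72.6 CPM over shares from 28.97 to 74.29%.

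Cxcr3 (chrX:101731535-101734269, minus strand), which binds interferon-induced CXC ligands, was nearly lost in the double transgenic cells. It had 16 reads over the 6 Ccnd1-Ikk2ca libraries (0 to 0.188 CPM, median 0.0124), and stood at 0, 0.684, 8.48 and 1.79 CPM in Ikk2ca(D), at 18.4, 11.6, 10.6 and 2.17 CPM in Ccnd1, and at 15.9, 16.1, 2.08 and 18.2 CPM in Control(D). It fell by 8.41 on the log2 scale against Control(D) (SE 1.39, edgeR adjusted p 0.0016) and fell by 8.12 against Ccnd1 (SE 1.38, adjusted p 0.00269), with no overlap in either. Library 3 held 13 of the 16 Ccnd1-Ikk2ca reads, and without it the fitted differences were -10.38 and -10.10. Against Ikk2ca(D) the difference was -6.16 (SE 1.31, adjusted p 0.0542). That difference passes without Ccnd1 4 (adjusted p 0.0487), Ikk2ca(D) 1 (0.0163) or Ccnd1-Ikk2ca 3 (0.0407), with immunoglobulin genes left out (0.0372) or by DESeq2 (0.000421).

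In cohort M a single Cxcr3 read was found in the 6 MMSET-Ikk2ca libraries. Ikk2ca(M) libraries had 0, 0, 1.59 and 0.257 CPM, MMSET libraries 0, 0.0225, 0 and 0.055 CPM (4 reads in all), and Control(M) libraries 5.68, 2.45, 10.5 and 6.63 CPM. All 3 transgenic groups lay below all 4 controls. The pooled level was 2857-fold lower in MMSET-Ikk2ca than in Control(M) (95% counting interval 512.7 to 112800, edgeR adjusted p 0.000984) and 199.1-fold lower than in Ikk2ca(M) (35.73 to 7862, adjusted p 0.0423). Library 3 held 101 of the 121 Ikk2ca(M) reads, and without it the fitted difference from Ikk2ca(M) was -4.41 in place of -6.79 (adjusted p 0.2055). MMSET cells differed from Control(M) by -8.26 (SE 1.88, adjusted p 0.0481). The calls against Control(D), Ccnd1 and Control(M) for the double groups held in all 18 fits with 1 library left out. For MMSET against Control(M) the call held in 3 of 18, those without Ikk2ca(M) 1, 2 or 3 (adjusted p over all 18 from 0.0287 to 0.143), and for MMSET-Ikk2ca against Ikk2ca(M) in 6 of 18, those without Control(M) 2, MMSET 1, 3 or 4, or Ikk2ca(M) 1 or 2 (0.0241 to 0.206). Both calls were also lost with libraries 1 to 4 of each group (0.0732 and 0.155) or an Xist term (0.05595 and 0.122) in the fit. With MMSET-Ikk2ca and Ikk2ca(M) alone in the fit, Cxcr3 did not pass the low-count filter and was not tested.

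Transcripts of T and NK cells, which also carry Cxcr3 and Cxcr6, were found in every group, with sums of the same order as Cxcr3 in the controls. The summed level of 11 such markers was 1.114 to 5.92 CPM in Ccnd1-Ikk2ca, against 5.039 to 20.58 CPM in Control(D), with 1 of 8 tested markers called lower. In that comparison 5.32% of all genes were called lower. The sum was 1.564 to 8.346 CPM in Ikk2ca(D) and 3.611 to 10.24 CPM in Ccnd1. Control(D) library 3 had the lowest sum and the lowest Cxcr3 (2.08 CPM) of its group. Ccnd1 library 4 had the highest sum and the lowest Cxcr3 (2.17 CPM) of its group. In cohort M the marker sum was 0.5001 to 2.525 CPM in MMSET-Ikk2ca and 3.885 to 17.45 CPM in Control(M), with 0 of 9 called. It was 2.955 to 11.45 CPM in Ikk2ca(M) and 0.8332 to 9.223 CPM in MMSET. Cd8a, Ncr1 and Klrb1c were at 0 in Ccnd1-Ikk2ca, Ncr1 and Klrb1c in Control(D), and Trbc1, Ncr1 and Klrb1c in MMSET-Ikk2ca, while none of the 11 was at 0 in Control(M). The part of T and NK cell RNA in the Cxcr3 and Cxcr6 levels was not tested.

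Ccr9 (chr9:123678439-123784330, plus strand, with Lztfl1 and Slc6a20a on the opposite strand), the receptor for intestinal Ccl25, stood at 0 to 0.331 CPM in MMSET-Ikk2ca (median 0, 40 reads), at 5.50, 3.42, 5.95 and 1.91 CPM in Ikk2ca(M), at 0.512, 0, 0 and 0.880 CPM in MMSET, and at 13.2, 14.9, 3.68 and 5.45 CPM in Control(M). MMSET-Ikk2ca and MMSET libraries lay below all Ikk2ca(M) and Control(M) libraries. Ccr9 fell by 6.53 on the log2 scale in MMSET-Ikk2ca against Control(M) (SE 1.47, edgeR adjusted p 0.0116; -7.39 and -7.17 without MMSET-Ikk2ca 1 and 4, the 2 libraries with reads), and the differences were -5.37 against Ikk2ca(M) (SE 1.41, adjusted p 0.0757) and -4.73 for MMSET against Control(M) (SE 1.61, adjusted p 0.211; 0.0367 by DESeq2). In cohort D it stood at 0.825 to 6.84 CPM in Ccnd1-Ikk2ca (median 2.78), at 8.83, 6.71, 6.26 and 21.4 CPM in Ikk2ca(D), at 20.6, 22.8, 17.4 and 5.56 CPM in Ccnd1, and at 4.29, 6.08, 15.3 and 11.8 CPM in Control(D). Ccnd1-Ikk2ca overlapped all 3 other groups. The fall against Ccnd1, by 2.37 (SE 0.56, adjusted p 0.0158), passed, although not without Ccnd1 1 (adjusted p 0.0545) or Ccnd1 2 (0.0514), nor with libraries 1 to 4 of each group (0.0586) or all 36 libraries (0.125) in the fit, and the difference from Control(D) of -1.54 (SE 0.55, adjusted p 0.0782) did not, except without Ccnd1-Ikk2ca 1 (0.0328) or by DESeq2 (0.0342).

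**Figure D4:**
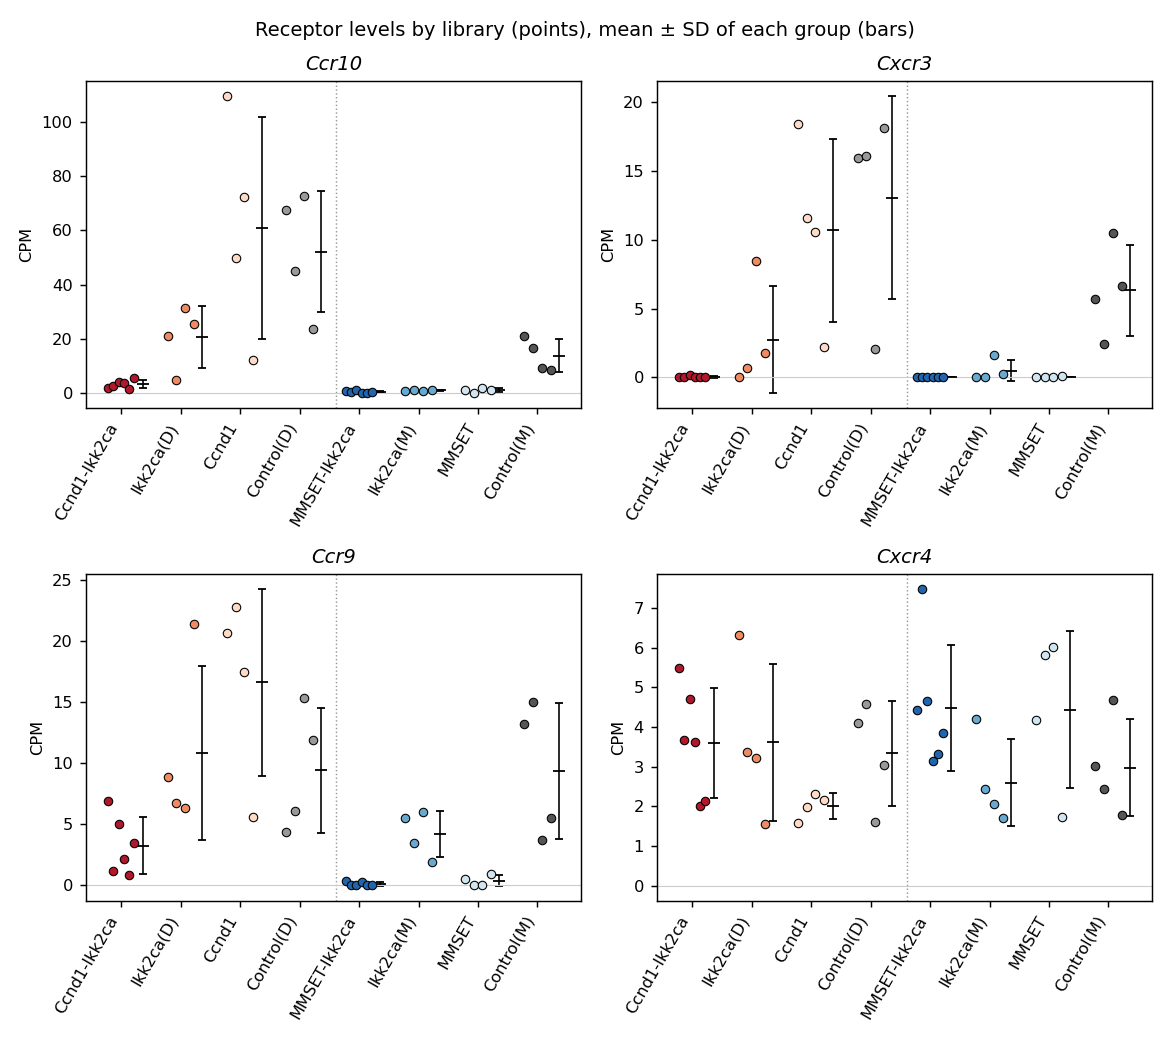
CPM of Ccr10, Cxcr3, Ccr9 and Cxcr4 in every library (points) with the mean ± SD of each group (bars), cohort D left of the dotted line and cohort M right. Ccr10 (at most 5.60 CPM) and Cxcr3 (at most 0.188 CPM) are low in both double transgenic groups, Ccr9 is near 0 in MMSET-Ikk2ca (at most 0.331 CPM) and MMSET (at most 0.880), and each transgenic group overlaps its control for Cxcr4.

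Cxcr4, which holds plasma cells in the marrow through Cxcl12, is given in full although it falls outside the rule for named members, a choice made after its values were seen. It stood at 2.001 to 5.496 CPM in Ccnd1-Ikk2ca (median 3.65), at 6.31, 3.37, 3.22 and 1.55 CPM in Ikk2ca(D), at 1.57, 1.98, 2.32 and 2.16 CPM in Ccnd1, and at 4.11, 4.58, 1.61 and 3.05 CPM in Control(D). In cohort M it stood at 3.15 to 7.49 CPM in MMSET-Ikk2ca (median 4.14), at 4.19, 2.44, 2.06 and 1.72 CPM in Ikk2ca(M), at 4.18, 5.81, 6.01 and 1.74 CPM in MMSET, and at 3.01, 2.45, 4.67 and 1.79 CPM in Control(M). Each transgenic group overlapped its control. The log2 difference from control was 0.11 (SE 0.44, edgeR adjusted p 0.926) for Ccnd1-Ikk2ca and 0.58 (SE 0.44, adjusted p 0.506) for MMSET-Ikk2ca, and no comparison of Cxcr4 was called. Among the members it had TPM rank 3 in Ccnd1-Ikk2ca (0.941 TPM) and MMSET-Ikk2ca (1.18 TPM), against rank 6 in Control(D) (0.7594 TPM) and rank 10 in Control(M) (0.653 TPM).

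Cxcr6, a receptor for Cxcl16 best known from T and NK cells, had 0 reads in MMSET-Ikk2ca and MMSET, 50 reads in Ikk2ca(M), all in library 3, and 1.29, 0, 3.05 and 3.30 CPM in Control(M). At the floor of 3 reads over the group, which covers counting error only, Cxcr6 was 287.8-fold lower in MMSET-Ikk2ca than in Control(M) (edgeR adjusted p 0.049). These groups overlap at 0 in Control(M) library 2. The call held in 5 of 18 fits with 1 library left out (adjusted p 0.0416 to 0.0961), those without Control(M) 2, MMSET 1 or 3, or Ikk2ca(M) 3 or 4. It was also lost with libraries 1 to 4 of each group (0.120) or an Xist term (0.0662) in the fit. With the compared groups alone in the fit, Cxcr6 did not pass the low-count filter and was not tested. In cohort D, Cxcr6 was at 0 to 1.08 CPM in Ccnd1-Ikk2ca (219 reads over 4 libraries), had 25 reads in Ikk2ca(D), and had none in Ccnd1 and Control(D). That difference was not called (adjusted p 0.0912 against Control(D)). Fyco1 lies opposite it on the other strand.

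Receptors of B cell positioning did not pass any edgeR test. Cxcr5, which draws B cells to follicles, stood at 0 to 0.774 CPM in Ccnd1-Ikk2ca (median 0.0136), 2.47, 0, 1.99 and 0 CPM in Ikk2ca(D), 1.65, 0.962, 2.81 and 1.304 CPM in Ccnd1, and 4.53, 0.0141, 1.27 and 4.17 CPM in Control(D). In cohort M it stood at 0 to 1.88 CPM in MMSET-Ikk2ca (median 0), 1.75, 0, 2.04 and 2.39 CPM in Ikk2ca(M), 2.40, 0, 0.114 and 0.0183 CPM in MMSET, and 2.34, 0, 17.1 and 3.93 CPM in Control(M). Its differences from control were -3.75 (SE 1.68, edgeR adjusted p 0.166) and -4.21 (SE 2.10, adjusted p 0.256). All Ccnd1-Ikk2ca libraries lay below all Ccnd1 libraries, a difference of -3.18 that was not called (SE 1.65, adjusted p 0.284).

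Ccr7, which guides lymphocytes to T cell zones, was at 0 to 1.92 CPM in Ccnd1-Ikk2ca (median 0), 0, 0.933, 0.927 and 0.746 CPM in Ikk2ca(D), 2.996, 0.0726, 0 and 0.914 CPM in Ccnd1, and 1.05, 0.676, 2.52 and 1.04 CPM in Control(D). In cohort M it was at 0 to 3.36 CPM in MMSET-Ikk2ca (median 0.251), 0.2865, 0.0297, 2.92 and 0 CPM in Ikk2ca(M), 2.68, 0.0225, 0 and 0.0183 CPM in MMSET, and 3.37, 1.14, 17.6 and 3.28 CPM in Control(M). The double transgenic groups overlapped their controls. Ccr6, a receptor for Ccl20, was at 0 to 1.31 CPM in Ccnd1-Ikk2ca (median 0.813), 0, 2.85, 1.87 and 2.15 CPM in Ikk2ca(D), 0.0749, 0.0363, 0 and 0 CPM in Ccnd1, and 0.0464, 0, 0.727 and 0 CPM in Control(D). In cohort M it was at 0 to 1.36 CPM in MMSET-Ikk2ca (median 0.392), 0.739, 0.549, 28.9 and 3.14 CPM in Ikk2ca(M), 5.77, 0.901, 0 and 0.0183 CPM in MMSET, and 0.636, 0.885, 2.87 and 0.0159 CPM in Control(M). Each transgenic group overlapped its control for Ccr6.

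B cell transcripts were lower in the double groups as well. The summed level of 8 B cell markers was 240.3 to 371.3 CPM in Ccnd1-Ikk2ca, against 821.2 to 1097 CPM in Control(D), and 177.8 to 254 CPM in MMSET-Ikk2ca and 643.4 to 967.3 CPM in Control(M). Against controls 4 of 8 tested markers were called lower in Ccnd1-Ikk2ca and 5 of 7 in MMSET-Ikk2ca, with none higher. Of all genes, 5.32% and 3.41% were called lower in these comparisons. Cr2 was at 0 in Ccnd1-Ikk2ca and no B cell marker was at 0 in the other 7 groups. The part of B cell RNA in the receptor levels was not tested.

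Among receptors of myeloid cells, Ccr1 and Ccr2 fell in MMSET-Ikk2ca against Control(M) and MMSET. Cxcr2 was called lower by edgeR in Ccnd1-Ikk2ca against Ccnd1 and not against Control(D). Ccr1, a receptor for Ccl3, Ccl5 and Ccl9, had 0 reads in MMSET-Ikk2ca, 0.754, 0, 0.675 and 2.502 CPM in Ikk2ca(M), 5.79, 1.08, 0.796 and 0.0183 CPM in MMSET, and 0.869, 0, 9.71 and 7.72 CPM in Control(M). At the floor of 3 reads over the group, which covers counting error only, Ccr1 was 686.1-fold lower than in Control(M) (edgeR adjusted p 0.0103). It was 306-fold lower than in MMSET at the same floor (adjusted p 0.0431). With the compared groups alone in the fit, Ccr1 did not pass the low-count filter in either comparison and was not tested. Every MMSET library lay above the MMSET-Ikk2ca libraries, and Control(M) library 2 was also at 0. The call against MMSET held in 4 of 18 fits with 1 library left out (adjusted p 0.0227 to 0.1001), those without Control(M) 2, MMSET 4, Ikk2ca(M) 2 or MMSET-Ikk2ca 4, and was also lost with libraries 1 to 4 of each group (0.131), an Xist term (0.0783) or no low-count filter (0.0513). In cohort D, Ccr1 had reads in 1 of 6 Ccnd1-Ikk2ca libraries (0.463 CPM), and stood at 0.0198, 0.535, 3.80 and 0 CPM in Ikk2ca(D), at 2.08, 3.61, 0.807 and 1.02 CPM in Ccnd1, and at 1.375, 2.72, 0 and 6.74 CPM in Control(D). The Ccnd1-Ikk2ca libraries lay below every Ccnd1 library, but neither the difference from Ccnd1, -4.59 (SE 1.85, adjusted p 0.1495), nor that from Control(D), -5.11 (SE 1.88, adjusted p 0.0869), passed by edgeR.

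Ccr2, the monocyte receptor for Ccl2, had 2 reads in MMSET-Ikk2ca, 2.49, 0.0742, 0 and 0.641 CPM in Ikk2ca(M), 25.6, 1.62, 1.59 and 0.293 CPM in MMSET, and 1.23, 0, 7.33 and 0.555 CPM in Control(M). Its pooled level was 510.1-fold lower than in Control(M) (95% counting interval 141.2 to 4212, adjusted p 0.0102) and 1779-fold lower than in MMSET (492.4 to 14690, adjusted p 0.0115), and both sizes rest largely on 1 library. MMSET 1 held 1550 of the 1736 MMSET reads, and without it the fitted difference from MMSET was -7.47 in place of -10.14 and the call was lost (adjusted p 0.0722). Control(M) 3 held 452 of the 566 Control(M) reads, and without it the fitted difference from Control(M) was -6.53 in place of -8.46 (adjusted p 0.0426). With libraries 1 to 4 of each group both were lost (adjusted p 0.0634 and 0.0851). With MMSET-Ikk2ca and Control(M) alone in the fit, Ccr2 did not pass the low-count filter and was not tested. In cohort D, Ccr2 was at 0.0145 to 1.79 CPM in Ccnd1-Ikk2ca (median 0.502), 5.98, 5.83, 7.70 and 1.26 CPM in Ikk2ca(D), 2.70, 1.40, 3.33 and 4.197 CPM in Ccnd1, and 0.0155, 1.60, 1.52 and 4.59 CPM in Control(D), with no call. Ccr2 has close paralogues with which it can share reads, so its values are uncertain.

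Cxcr2, the neutrophil receptor for Cxcl1 and Cxcl2, had 6 reads in Ccnd1-Ikk2ca (0 to 0.0607 CPM), 0, 0.336, 12.7 and 0.0108 CPM in Ikk2ca(D), 8.26, 12.3, 0.79 and 0.015 CPM in Ccnd1, and 0.34, 1.51, 1.08 and 0 CPM in Control(D). It fell by 8.502 on the log2 scale against Ccnd1 (SE 2.13, edgeR adjusted p 0.0243), with overlap through Ccnd1 library 4, and the difference from Control(D) was -5.62 (SE 1.95, adjusted p 0.07245). The fitted difference from Ccnd1 was -7.68 without Ccnd1 2 and -10.15 without Ccnd1-Ikk2ca 5. The call was lost without Ccnd1 1 (0.0561), Ccnd1 2 (0.0554), Ccnd1-Ikk2ca 3 (0.0563) or Ccnd1-Ikk2ca 6 (0.0527), with libraries 1 to 4 of each group (0.0699), with all 36 libraries (0.0545) and with no low-count filter (0.0648). With Ccnd1-Ikk2ca and Ccnd1 alone in the fit, Cxcr2 did not pass the low-count filter and was not tested. In cohort M, Cxcr2 was at 0 to 1.26 CPM in MMSET-Ikk2ca (median 0), 0, 0.401, 0 and 2.19 CPM in Ikk2ca(M), 14.3, 1.35, 0 and 0 CPM in MMSET, and 0, 0.0161, 0.859 and 0 CPM in Control(M), with overlap between all 4 groups and no call.

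The summed level of 12 monocyte and macrophage markers, most of it Ly6c2, was 4403 to 8165 CPM in Ccnd1-Ikk2ca, against 927 to 1388 CPM in Control(D), and 5472 to 11110 CPM in MMSET-Ikk2ca and 2127 to 4058 CPM in Control(M). Ly6c2 and Ctss were called higher and Adgre1 lower in Ccnd1-Ikk2ca, and Ly6c2, C1qb and Mpeg1 were called higher and Lyz2 lower in MMSET-Ikk2ca. The median log2 difference over the 12 was -1.42 in Ccnd1-Ikk2ca and 0.43 in MMSET-Ikk2ca, and none of the 12 was at 0 in any group. The sum thus mainly follows Ly6c2, and in Ccnd1-Ikk2ca it went the other way from the median. Whether the sum reflects RNA of monocytes and macrophages was not tested.

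**Figure D5:**
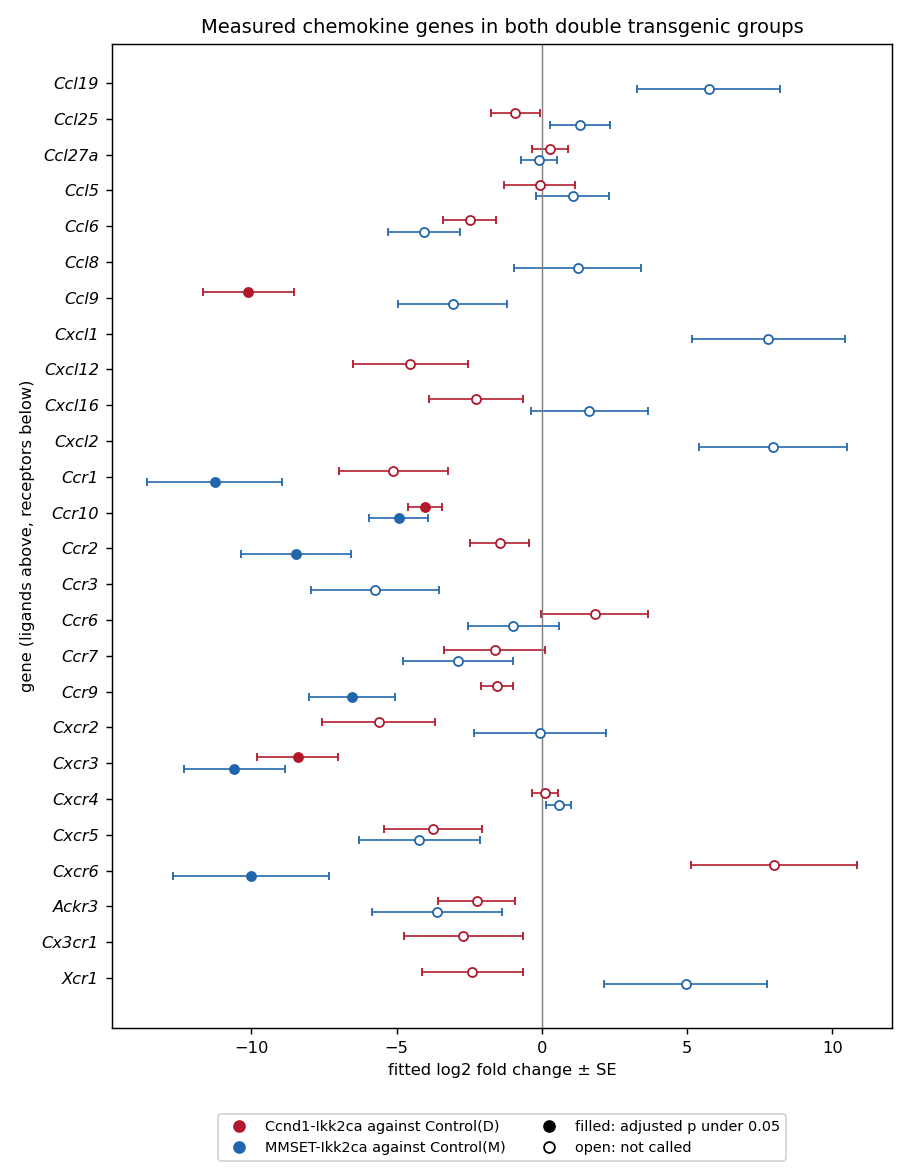
Fitted log2 fold change ± SE of the measured members (rows, ligands above and receptors below) in Ccnd1-Ikk2ca against Control(D) (red) and MMSET-Ikk2ca against Control(M) (blue); filled points passed at adjusted p under 0.05. All filled points lie left of 0. Values of genes with 3 or fewer reads in a group (such as Ccl9, Ccr1 and Cxcr6) depend on the prior count of the fit and are not sizes of a fold.

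Ackr3, a scavenging receptor for Cxcl12, had a group mean of at least 5 CPM in Ccnd1 alone. It was at 0 to 2.34 CPM in Ccnd1-Ikk2ca (median 0.0215), 10.8, 0.56, 0.892 and 2.10 CPM in Ikk2ca(D), 12.4, 4.99, 2.23 and 2.95 CPM in Ccnd1, and 3.60, 4.97, 2.67 and 0.877 CPM in Control(D), where Ccnd1-Ikk2ca overlapped each other group. In cohort M, 1 of 6 MMSET-Ikk2ca libraries had reads (0.671 CPM), and Ackr3 stood at 1.49, 0, 0 and 0.0257 CPM in Ikk2ca(M), 0.496, 3.175, 0 and 2.37 CPM in MMSET, and 3.617, 1.88, 0 and 0 CPM in Control(M). No difference was called (edgeR adjusted p 0.326 for Ccnd1-Ikk2ca and 0.396 for MMSET-Ikk2ca against control). The other measured receptors Ccr3, Cx3cr1 and Xcr1 reached 6.567, 3.013 and 0.9538 CPM in their highest libraries, had reads in 13, 13 and 13 of 36 libraries, and passed no edgeR test. Cx3cr1 overlaps several genes on both strands.

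The cohorts were compared through their responses. For the double transgenic response in cohort D minus that in cohort M, 0 of 26 members were called (7 at unadjusted p under 0.05, 4 by DESeq2), where 0.175% of 17116 genes were called. For the Ikk2ca response it was 0 of 26 (5 unadjusted, 2 by DESeq2), where 0% were called. Unadjusted p under 0.05 was held by 1910 of the 17116 genes for the double response and by 1079 for the Ikk2ca response. The shares of all genes called are from edgeR, and those of DESeq2 are not given. Ccr9 had a difference of 5.01 between the double responses (SE 1.41, edgeR adjusted p 0.159), positive because the level in cohort D dropped less, and it passed by DESeq2 (adjusted p 0.0104). For Ccr10 this difference was 0.92 (SE 1.03, adjusted p 0.869), and for Cxcr3 it was 2.19 (SE 1.87, adjusted p 0.768). Control(D) libraries all had more Ccr10 than Control(M) libraries, by 1.91 on the log2 scale (SE 0.81, adjusted p 0.426), in a comparison added after the values were seen in which 0 of 26 members were called (5 unadjusted, 1 by DESeq2; 0.0409% of all genes). In that comparison of controls 1780 of the 17116 genes had an unadjusted p under 0.05. Cohort and any difference in how the cohorts were handled cannot be told apart there.

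Genes that act downstream of chemokine receptors or bind chemokines without being members were looked at as a list of 58, of which 56 were in the files and 47 (cohort D) and 45 (cohort M) were measured. In Ccnd1-Ikk2ca against Control(D) 2 were called higher and 10 lower, with a median log2 fold change of -0.24, where 5.83% of all genes were called higher and 5.32% lower, and in MMSET-Ikk2ca against Control(M) 2 were higher and 8 lower, with a median of -0.30, where the shares of all genes were 3.5% and 3.41%. With 1 transgene 1 gene in all was called, higher in Ikk2ca(M). By part of the pathway, 6 of 21 effectors, 2 of 12 desensitisers and 2 of 8 G protein subunits were lower in Ccnd1-Ikk2ca. In MMSET-Ikk2ca these were 5 of 22, 1 of 10 and 1 of 8.

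Cd74, the invariant chain of MHC class II and a receptor for the cytokine MIF, rose in both double models, to 7517 ± 1947 CPM in Ccnd1-Ikk2ca against 2925 ± 542.3 CPM in Control(D) (log2 difference 1.36, SE 0.31, edgeR adjusted p 0.0102) and to 10620 ± 2328 CPM in MMSET-Ikk2ca against 3934 ± 909 CPM in Control(M) (1.43, SE 0.19, adjusted p 0.000163; SD, n = 6 and 4). Rgs10, which shortens G protein signals, fell by 2.11 in Ccnd1-Ikk2ca (SE 0.35, adjusted p 0.00105) and fell by 2.92 in MMSET-Ikk2ca (SE 0.46, adjusted p 0.000794). Rasgrp2, which activates Rap1 and integrins, fell by 3.66 in Ccnd1-Ikk2ca (SE 0.50, adjusted p 0.000174) and fell by 4.29 in MMSET-Ikk2ca (SE 0.97, adjusted p 0.0116).

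In Ccnd1-Ikk2ca against Control(D), the G protein subunit Gnb2 fell by 0.81 (SE 0.15, edgeR adjusted p 0.00199). Rgs14, another regulator of G protein signalling, fell by 1.297 (SE 0.24, adjusted p 0.00249), and Ptk2b, a kinase of cell migration, fell by 0.78 (SE 0.15, adjusted p 0.00339). In MMSET-Ikk2ca against Control(M), Pik3cd, the catalytic subunit of PI3K delta, fell by 1.62 (SE 0.29, adjusted p 0.00179) and the G protein subunit Gnaq fell by 1.77 (SE 0.36, adjusted p 0.00597). Dpp4, a protease that trims chemokines, had 1 read in all MMSET-Ikk2ca libraries and 4.34 ± 1.39 CPM in Control(M) (SD, n = 4; adjusted p 0.00542).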

How the data were processed

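RNA was measured in 36 libraries of 2000 sorted cells. Per the labels' protocols, cDNA was made from an oligo-dT primer with template switching, amplified and tagmented, without molecular identifiers being mentioned. Per the submitters' processing notes, Salmon 1.3.0 and GRCm38 were used, with DESeq2 1.32.0 and bcl2fastq 2.20.0.422 also named. The deposited tables hold Salmon's expected counts (estimated, not whole) and TPM as the authors' run normalized it, for 140825 transcripts.

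Counts were summed to genes with GENCODE release 21 (139960 transcripts matched and 865 did not, with 0.0636 to 0.134% of reads) and rounded. edgeR 4.0.16 in R 4.3.3 (TMM, filterByExpr, robust quasi-likelihood, two-sided) was fitted to the 18 libraries of each cohort, and to all 36 for contrasts between cohorts. SE is the absolute log2 fold change over the square root of F. Libraries were grouped by genotype label. Alternatives were DESeq2 1.42.0, its size factors, no filter, no immunoglobulin genes, a replicate block, libraries 1 to 4, a term for Xist above 10 CPM (the Xist term), other sets of libraries, and each library left out. Figures and sums used Python 3.11.15, numpy 2.4.6, pandas 2.3.3 and matplotlib 3.10.9.

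Some genes that the symbol rule would also take are not reported here. Members, gene lists and tests were chosen with earlier results of these data known. Values are given in full for members called in any of 12 comparisons or with a group mean of at least 5 CPM, and for up to 6 pathway genes per double transgenic comparison. For 0 to 3 reads in a group, folds come from pooled reads, with 3 reads over the group as the floor and exact 95% intervals.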

Additional observations from a re-analysis of the deposited data

Results flagged for a closer look

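Single libraries stood far from the others of their group for some members. The test asks whether the gap between the highest or lowest library and its nearest neighbour exceeds Dixon's 95% limit for the group's range. Over 64 combinations of a described member and a group with a mean of at least 1 CPM it found 13. The limit is set for normally distributed values, which these low CPM need not follow, so no rate by chance is given. In Ikk2ca(D), library 3 was high for Cxcr2 (12.7 CPM), Ccl6 (10.7) and Ccr1 (3.8), library 1 for Ackr3 (10.8) and library 4 for Ccr9 (21.4). In MMSET, library 1 was high for Ccr2 (25.6), Cxcr2 (14.3) and Ccr6 (5.77), and it also had the highest neutrophil marker sum, 2775 CPM. In Control(M), library 3 was high for Ccr7 (17.6) and Ccr2 (7.33). Ikk2ca(M) library 3 was high for Ccr6 (28.9), MMSET-Ikk2ca library 2 for Cxcr4 (7.49), and Control(D) library 3 was low for Cxcr3 (2.08).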

How the results depend on the processing

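No called member changed direction under any alternative, and the calls of Ccl9, Ccr10 and Cxcr3 in Ccnd1-Ikk2ca against Control(D), and of Ccr10, Cxcr3 and Ccr9 in MMSET-Ikk2ca against Control(M), held under all of them. Counts of members called moved as follows, and the shares of all genes called under these alternatives are not given. DESeq2 called 7 in Ccnd1-Ikk2ca against Control(D), 5 against Ikk2ca(D), 3 in MMSET and 2 in Ikk2ca(M) against Control(M), 4 in MMSET-Ikk2ca against Ikk2ca(M), 2 and 4 for the differences of the Ikk2ca and double responses, and 1 between controls. The 7 against Control(D) include Ccl9, Ccr10, Cxcr3 and Ccr9, and the others are not named here. For Ccnd1-Ikk2ca against Ikk2ca(D), leaving out immunoglobulin genes gave 3, and libraries 1 to 4, all 36 libraries or the compared groups alone gave 0. Against Ccnd1, libraries 1 to 4 or all 36 gave 3. For MMSET against Control(M), libraries 1 to 4 or an Xist term gave 0. For Ikk2ca(M) against Control(M), all 36 libraries or the compared groups alone gave 1. For MMSET-Ikk2ca, the compared groups alone gave 3 against Control(M), 0 against Ikk2ca(M) and 1 against MMSET. The calls missing there were not retested, because the genes did not pass the low-count filter of the compared groups alone. These were Ccr1, Ccr2 and Cxcr6 against Control(M), Cxcr3 against Ikk2ca(M) and Ccr1 against MMSET. The same held in Ccnd1-Ikk2ca for Ccl9 against Ikk2ca(D) and Cxcr2 against Ccnd1. All 36 libraries gave 3 against Ikk2ca(M). Libraries 1 to 4 gave 0 and 0, and an Xist term 0 and 1, against Ikk2ca(M) and MMSET, and no filter gave 1 against MMSET. With the replicate number as a block, the counts were 0 (Ccnd1-Ikk2ca against Ikk2ca(D)), 3 (against Ccnd1), 0 (MMSET against Control(M)), 0 and 0 (MMSET-Ikk2ca against Ikk2ca(M) and MMSET), each equal to those of libraries 1 to 4 without a block. For MMSET-Ikk2ca against Control(M) the block gave 4 and libraries 1 to 4 gave 5, and the calls of Ccr1, Ccr2 and Cxcr6 were lost with the block (adjusted p 0.0786, 0.0802 and 0.131), those of Ccr2 and Cxcr6 also without it (0.0634 and 0.120). Same-numbered libraries had a median correlation of 0.0109 in cohort D and 0.0262 in M, above 0.1 in 1 of 24 pairs each. For libraries of different number the medians were -0.0054 and -0.0077. Such low correlations cannot show whether the numbers pair libraries. With 1 library left out, counts ran from 3 to 4 for Ccnd1-Ikk2ca against Control(D), 0 to 3 against Ikk2ca(D) and 3 to 6 against Ccnd1, from 0 to 1 for MMSET, and for MMSET-Ikk2ca from 5 to 6 against Control(M), 0 to 3 against Ikk2ca(M) and 0 to 2 against MMSET. The other comparisons stayed at 0 to 0. Fitted values also moved by over 1.5 times for Ccr1 in MMSET-Ikk2ca, to -10.60 against Control(M) without Control(M) 3 and -8.40 against MMSET without MMSET 1, for Ccl9 to -7.99 in Ccnd1-Ikk2ca against Ikk2ca(D) without Ikk2ca(D) 2, and for Cxcr3 to -9.56 in MMSET against Control(M) without MMSET 4, and to -11.73 and -7.93 in MMSET-Ikk2ca against Control(M) and Ikk2ca(M) without MMSET-Ikk2ca 4, the library with its 1 read. The cause of these moves was not tested. Members under about 1 CPM are listed at 0 in many libraries, and the cause of these zeros was not tested.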
